A study of Mus musculus with 9 samples.

Results

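The comparison described here sets 4T07 tumor cells against 67NR tumor cells, 2 sublines derived from 1 spontaneous mammary adenocarcinoma of a BALB/cfC3H mouse. Its members were taken from the sample labels as the 3 arrays of 4T07 and the 3 arrays of 67NR, 6 of the 9 arrays of the series, which also holds 3 arrays of the third subline, 4T1. For every array, 500000 untreated cells of a line had been placed orthotopically in the mammary fat pad of a female Balb/c mouse carrying the Ub-GFP transgene, so that the host's cells were green, and tumors had grown for 2 to 4 weeks to a mean diameter of 10 mm. Cells negative for GFP and for CD45, the pan-leukocyte surface protein, were sorted, and their amplified, biotin-labeled RNA was hybridized to Illumina mouse bead arrays. The sources used here state neither the age of the mice, nor whether each array came from a mouse of its own, nor which slide held it, so that p-values measure only the spread between these 3 arrays of each line. Each line is 1 subline, and a difference between 4T07 and 67NR is a difference between these 2 cell populations grown in the animal.

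The 4T1 series is a textbook set of sublines that share an origin and differ in how far they spread. 67NR forms primary tumors that do not metastasize, whereas cells of 4T07 leave the primary tumor and reach distant tissue. Epithelial tumor cells can lose keratins and cell junctions and gain matrix and motility genes, a shift driven by transcription factors of the SNAI, ZEB, TWIST and PRRX families. Tumor cells also differ in how far they display peptides on MHC molecules, a process that interferons induce, and in how they make and store lipids, which bears on ferroptosis, the iron-dependent death by peroxidation of polyunsaturated lipids.

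Signals were background-corrected and quantile-normalized, and every level below is a normalized log2 intensity of 1 array. A difference is 4T07 minus 67NR on that log2 scale with its standard error (SE), and a gene was called when the adjusted p of limma was under 0.05. A probe counted as detected on an array at a detection p under 0.05. Between 16604 and 17282 probes (median 17142) were detected on the 4T07 arrays, and between 16025 and 16990 (median 16430) on the 67NR arrays. Across genes, arrays of 4T07 correlated with each other at 0.985 to 0.992 and arrays of 67NR at 0.983 to 0.99, whereas an array of 4T07 and an array of 67NR correlated at 0.857 to 0.865. No array stood apart from the others of its line. In bulk RNA of this kind, fewer cells of a type and less RNA per cell cannot be told apart.

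Markers of other cell types were set beside the comparison. For each list, the linear intensities of its genes were summed on every array. The sum over 18 fibroblast and pericyte markers was 4439 to 6154 on the 4T07 arrays and 22030 to 24170 on the 67NR arrays. Most of the 67NR sum is the signal of 1 gene, Pdpn. It had 14.18, 13.96 and 14.2 in 67NR and 5.71, 6.42 and 6.5 in 4T07. Of the 18 markers, 7 and 13 were detected on any array of 4T07 and of 67NR. Fap, Postn, Thy1, Rgs5 and Myh11 were not above background on any array of either line. The sum over 17 leukocyte markers was 1347 to 1563 in 4T07 and 1835 to 3540 in 67NR. Of these, 10 were detected on any array of 4T07 and 12 on any array of 67NR. Cd14 and S100a8, which weigh heavily in the sum, were detected on all 3 arrays of each line. Cd14 had 9.05, 9.16 and 9.02 in 4T07 and 9.2, 8.73 and 8.87 in 67NR. S100a8 had 8.15, 7.98 and 8.63 in 4T07 and 10.67, 9.55 and 7.57 in 67NR, with wide scatter in 67NR. Laptm5 and Coro1a were also detected on all 3 arrays of each line, Csf1r on 1 4T07 and 3 67NR arrays, and C1qc on 2 of each. Adgre1, C1qa, Cd53 and Cd79b, genes of macrophages and lymphocytes, were not above background on any array of either line. Ptprc, which encodes CD45, was not analysed here for want of a named probe. Hba-a1, an alpha globin of red blood cells, was not above background in 4T07 and had log2 intensities of 8.45, 8.43 and 7.63 in 67NR. The sum over 15 endothelial markers was 672.2 to 869.2 in 4T07 and 542.4 to 615.1 in 67NR. Its brightest member in 4T07 was Egfl7, with 7.79, 8.39 and 7.91 in 4T07 and 5.21, 4.89 and 5.73 in 67NR. Of 8 endothelial markers tested, 1 was called higher (12.5%, beside 21.9% of all genes) and 0 were lower. The sum over 11 mammary luminal and milk markers was 10830 to 14460 in 4T07 and 872.7 to 996.4 in 67NR, and the basal and myoepithelial sum over 10 markers was 6716 to 7762 in 4T07 and 2486 to 2636 in 67NR. The basal sum rests mainly on Itgb4 in 4T07 and on Mylk in 67NR. Mylk itself was not higher in 4T07, at 10.57, 10.27 and 10.43 against 10.69, 11 and 11.09 in 67NR. Krt17, Cdh3 and Myh11 were not above background on any array of either line. The luminal hormone receptor genes Esr1 and Pgr, the alveolar factor Elf5 and the basal keratin Krt5 were not above background on any array of either line, so that the labelled mammary origin rests on Krt8, Krt18, Foxa1 and the casein Csn3 in 4T07, and on few epithelial markers in 67NR.

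Differences between the lines reached nearly as many genes as did not pass the test. Of 10021 genes, 45.3% were called: 2197 (21.9%) were higher and 2344 (23.4%) were lower in 4T07. The median difference over all genes was -0.05. Many of the differences were small, since 56.9% of the called genes changed by less than 2-fold. The large ones leaned toward 4T07, with 267 genes at least 8-fold higher and 130 at least 8-fold lower by the fitted values. The 3 values of each line did not overlap for 53.4% of all genes, 2554 of them above and 2801 below 67NR. A further view is given by detection: 417 genes were detected on all 3 4T07 arrays and on no 67NR array, and 267 genes on all 3 67NR arrays and on no 4T07 array. Of the first set, 322 were also detected on all 3 4T1 arrays and 56 on none, and of the second set, 32 were detected on all 3 4T1 arrays and 182 on none.

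Among genes detected in both lines, the largest rise was that of Mgp, which encodes matrix Gla protein, an inhibitor of calcification. Its levels were 14.12, 13.92 and 13.46 in 4T07 and 5.85, 5.40 and 5.34 in 67NR, a 316-fold difference (8.30 ± 0.22, adjusted p = 8.67e-11). The focal adhesion gene Tns4 (7.44 ± 0.16), the ferritin receptor gene Scara5 (6.69 ± 0.34), Stxbp2, a regulator of vesicle fusion (6.53 ± 0.16), and the membrane glycoprotein gene Gpnmb (6.19 ± 0.36) were other large rises outside the antigen presentation genes described below. For a further set the brightest probe was not above background in 67NR while another probe of the gene was, so that only a bound holds: the galectin gene Lgals7 was at least 133-fold higher, the scavenger receptor gene Stab1 at least 62.7-fold and the potassium channel gene Kcnk5 at least 44.8-fold. The reading for some genes depended on the probe. Ctsa, a lysosomal carboxypeptidase, was at least 64.0-fold higher on its brightest probe and differed by -0.11 on another, and for Scara5 another probe gave -0.19.

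The genes detected only in 4T07 were led by Wfdc2, which encodes a secreted protein with whey acidic protein domains. It had 14.70, 14.78 and 14.78 in 4T07 and was not above background in 67NR, which makes it at least 780-fold higher (adjusted p = 3.99e-13). These bounds set the mean of the bright line against the detection limit of the arrays of the dim line. Amigo2, an adhesion gene, was at least 220.2-fold higher in 4T07, the scavenger receptor gene Scara3 at least 199.7-fold and the cell cycle regulator Rgcc at least 132-fold. Nt5e, the ecto-enzyme CD73 that makes extracellular adenosine, had 11.86, 11.74 and 12.34 in 4T07 and was at least 114-fold higher. Sncg, a synuclein gene, was at least 94.8-fold higher, the stress-induced factor Atf3 at least 69.1-fold and the proteoglycan gene Esm1 at least 66.0-fold. All of these except Esm1 were also detected on all 3 4T1 arrays.

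Among the large falls, the brightest probe of Epb41l3, a membrane skeleton gene, was not above background in 4T07 and had 12.92, 13.01 and 12.88 in 67NR. It was at least 230.0-fold lower in 4T07 (adjusted p = 3.85e-12), although the other probes of the gene gave only -0.51 and -0.14. Pdpn, which encodes the mucin-like membrane protein podoplanin, had 5.71, 6.42 and 6.50 in 4T07 and 14.18, 13.96 and 14.20 in 67NR (-7.91 ± 0.24, adjusted p = 2.63e-10). The brightest probe of the chemokine gene Cxcl12 was not above background in 4T07 and had 11.27, 11.21 and 11.92 in 67NR, at least 83.1-fold lower in 4T07, and its other probes gave -4.38 and -3.91. For both genes the values of the lines did not overlap. Further falls were those of the matrix genes Fbln1 (-6.42 ± 0.14), Aebp1 (-6.04 ± 0.29) and Loxl1 (-5.97 ± 0.29), of the secreted inhibitor Serpinf1 (-6.02 ± 0.32), and of the sulfotransferase gene Chst1 (-5.86 ± 0.19), and the adhesion gene Nectin3 was at least 37.7-fold lower on its brightest probe. Another probe of Serpinf1 gave -0.38.

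Of the genes detected only in 67NR, the neurotrophic factor gene Gdnf was not above background in 4T07 and had 12.60, 11.74 and 11.46 in 67NR, at least 115-fold lower in 4T07 (adjusted p = 4.5e-10). Alox5ap, which encodes the activating protein of 5-lipoxygenase in leukotriene synthesis, was at least 110.2-fold lower, and a second probe gave a like difference of -7.15. The scavenger receptor gene Scarf2 was at least 95.9-fold lower, the delta-5 desaturase gene Fads1 at least 93.4-fold, Stac2 at least 55.1-fold, the matrix gene Spon2 at least 47.1-fold and Fez1, a kinesin adaptor, at least 43.2-fold. Of these, Scarf2 and Fads1 were detected on all 3 4T1 arrays, and the others on none.

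**Figure D1:**
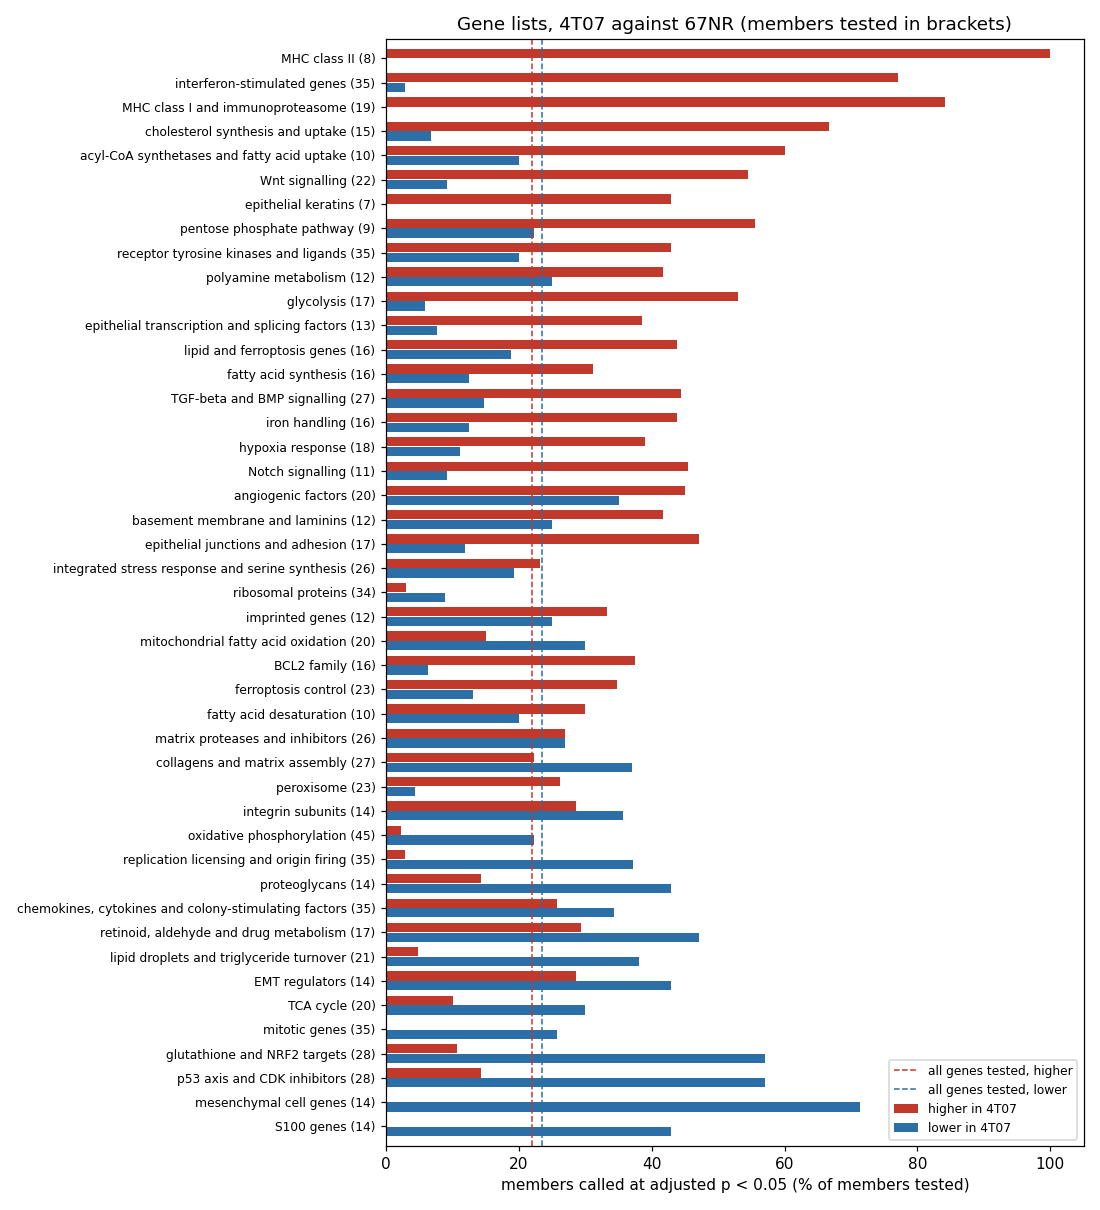
Percent of the tested members of each gene list (vertical axis, number of tested members in brackets) called higher (red) or lower (blue) in 4T07 than in 67NR at an adjusted p under 0.05. Lists run from the highest median difference at the top, dashed lines mark the 21.9% and 23.4% of all 10021 genes, and the antigen presentation and interferon lists stand at the top while the S100, mesenchymal, p53 and glutathione lists stand at the bottom.

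Genes induced by interferons were higher in 4T07. Of 35 such genes tested, 27 were higher and 1 was lower, with a median difference of 1.73, beside 21.9% and 23.4% and a median of -0.05 for all genes. The same shares of all genes stand beside the counts of every list below. Rsad2, the antiviral enzyme viperin, had 10.62, 10.42 and 10.36 in 4T07 and was not above background in 67NR, at least 39.99-fold higher (adjusted p = 1.07e-09). Isg15, a ubiquitin-like modifier, had 11.06, 11.14 and 10.89 in 4T07 and 8.67, 7.86 and 7.86 in 67NR (2.90 ± 0.24, adjusted p = 1.43e-06). The values of the lines lay apart in both genes. Stat2 and Irf9, which belong to the signaling complex ISGF3, rose as well: Stat2 had 8.38, 8.21 and 8.51 in 4T07 and 6.68, 6.49 and 6.39 in 67NR (1.85 ± 0.15), and Irf9 differed by 2.38 ± 0.21. Irf7, the factor that amplifies type I interferon genes, was detected on no 67NR array and was at least 8.51-fold higher. Usp18, the protease that removes ISG15, differed by 3.64 ± 0.21, and the RNA-sensing synthetases Oas1g and Oasl2 by 4.17 ± 0.15 and 3.66 ± 0.26. As the Oas genes are close relatives, their probes may share signal. The GTPase genes Gbp2 and Gbp3 differed by 1.95 ± 0.29 and 2.60 ± 0.34.

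Not every gene of this list moved. Irf1, a factor downstream of interferon gamma, had 13.93, 13.78 and 13.90 in 4T07 and 14.002, 13.76 and 12.72 in 67NR, which overlap (adjusted p = 0.413). Ifit2, an RNA-binding effector, had 8.84, 8.27 and 8.72 in 4T07 and 8.87, 8.16 and 8.86 in 67NR (adjusted p = 0.957), while its relative Ifit3 rose by 2.87 ± 0.25. Ddx58, the RNA sensor RIG-I, differed by 0.17 (adjusted p = 0.477). Irgm1, an immunity-related GTPase gene, differed by 0.20 on its brightest probe (adjusted p = 0.265) and by 1.02 to 2.19 on its others. The one lower member was Ifitm2, an antiviral membrane protein gene, at -0.41 ± 0.15 (adjusted p = 0.0435), a call lost under median centring (adjusted p = 0.0706) and without replicate 2 or replicate 3 of each line, 4T1 included (0.0518 to 0.155). Ifng, the gene of interferon gamma itself, was detected on 1 4T07 array and on all 3 67NR arrays and differed by -0.46 ± 0.15 (adjusted p = 0.025). That call was lost under median centring and without replicate 2 of either line.

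The promoters of a few of these genes are printed because the genes moved together, or failed to. They are RefSeq sequences of GRCm38.p6 (the bases around the transcription start, 5′ to 3′ on the gene's strand), which were found for 25 of the 35 interferon-stimulated genes tested. Capitals mark matches on either strand to GAAANNGAA, a core of the interferon-stimulated response element. Isg15 (chr4:156200769-156201068, minus strand) has 3 overlapping matches, Rsad2 (chr12:26456403-26456702, minus strand) has 1, and B2m (chr2:122147437-122147736, plus strand), a gene of the MHC class I list that did not pass the test, has 1 as well.
Isg15: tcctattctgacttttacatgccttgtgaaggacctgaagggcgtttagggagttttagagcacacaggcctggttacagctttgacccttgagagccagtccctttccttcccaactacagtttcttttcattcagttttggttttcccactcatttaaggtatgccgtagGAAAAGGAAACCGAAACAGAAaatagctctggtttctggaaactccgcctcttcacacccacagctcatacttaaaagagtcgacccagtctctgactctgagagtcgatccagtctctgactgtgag
Rsad2: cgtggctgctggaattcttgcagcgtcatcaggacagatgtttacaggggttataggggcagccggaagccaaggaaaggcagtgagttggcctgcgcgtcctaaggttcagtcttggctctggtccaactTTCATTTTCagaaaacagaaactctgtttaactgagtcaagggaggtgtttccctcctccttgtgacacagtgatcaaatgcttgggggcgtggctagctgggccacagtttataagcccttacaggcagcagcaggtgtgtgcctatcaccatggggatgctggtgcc
B2m: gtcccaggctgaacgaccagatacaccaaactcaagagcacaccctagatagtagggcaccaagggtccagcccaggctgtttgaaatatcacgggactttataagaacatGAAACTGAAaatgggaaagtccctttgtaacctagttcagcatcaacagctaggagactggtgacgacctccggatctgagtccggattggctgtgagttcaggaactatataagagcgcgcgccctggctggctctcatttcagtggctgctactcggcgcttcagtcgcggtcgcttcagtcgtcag
The letters were present in 13 of the 20 interferon-stimulated genes with a promoter that were called higher and in 3 of the 5 that were not, against 9.76% of all 27025 genes with a promoter and 8.33% of the tested ones. A match is a description of the letters and not a shown binding site, and within the list the share was nearly alike for genes that rose and genes that did not.

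**Figure D2:**
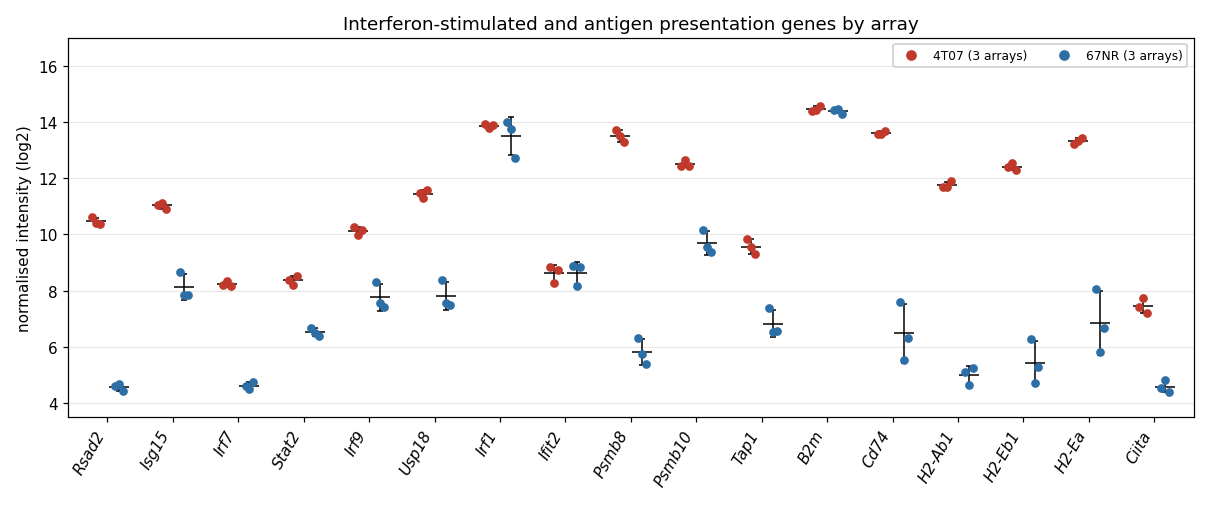
Normalized log2 intensity (vertical axis) of interferon-stimulated and antigen presentation genes on each of the 3 4T07 arrays (red) and the 3 67NR arrays (blue), where dashes and bars are the mean and SD of 3 arrays. The lines lie apart for all genes shown except Irf1, Ifit2 and B2m, and the MHC class II genes of 67NR scatter most, with Cd74 at 7.58, 5.52 and 6.33.

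Antigen presentation by MHC class I showed the same direction. Of 19 genes tested, 16 were higher and 0 were lower in 4T07, with a median of 0.81. The 3 catalytic subunits of the immunoproteasome, which cuts proteins into presentable peptides, were all called higher. Psmb8 had 13.71, 13.50 and 13.29 in 4T07 and 6.33, 5.74 and 5.38 in 67NR (7.68 ± 0.21, adjusted p = 1.11e-10), and a second probe gave 4.79. Psmb10 differed by 2.82 ± 0.19 and Psmb9 by 1.84 ± 0.25, with Psmb9 detected on 1 67NR array. Tap1 and Tap2, which together form the peptide transporter, differed by 2.75 ± 0.25 and 1.95 ± 0.18. Among heavy chain genes, H2-K1 had 12.99, 12.93 and 12.78 in 4T07 and 12.14, 11.74 and 11.72 in 67NR (1.04 ± 0.15), H2-Q7 differed by 2.77 ± 0.14 (and by -0.35 on another probe), H2-T23 by 1.93 ± 0.14 and H2-D1 by 0.42 ± 0.13. The call of H2-D1 was lost under median centring (adjusted p = 0.169), without replicate 3 of 67NR (0.0626) and without replicate 1 of 4T07 (0.0537). These heavy chains are near-identical relatives and their probes may share signal. B2m, the shared light chain, had 14.41, 14.44 and 14.58 in 4T07 and 14.43, 14.48 and 14.29 in 67NR, values that overlap (adjusted p = 0.678). Nlrc5, the transactivator of class I genes, differed by 0.68 ± 0.16.

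All 8 MHC class II genes tested were higher in 4T07, with a median difference of 5.40. Cd74, the invariant chain that guards the peptide groove, had 13.59, 13.59 and 13.70 in 4T07 and 7.58, 5.52 and 6.33 in 67NR (7.15 ± 0.38, adjusted p = 2.99e-08). H2-Ab1 had 11.70, 11.70 and 11.90 in 4T07 and 5.11, 4.64 and 5.24 in 67NR (6.77 ± 0.17), and H2-Eb1 had 12.39, 12.53 and 12.30 in 4T07 and 6.27, 4.72 and 5.30 in 67NR (6.98 ± 0.30). The values of both chains in 4T07 lay far above those in 67NR, most of which were near background. The peptide exchange genes H2-DMa and H2-DMb1 differed by 4.11 ± 0.14 and 4.33 ± 0.13. Ciita, the master transactivator of class II genes, had 7.42, 7.72 and 7.22 in 4T07 and was not above background in 67NR, at least 4.95-fold higher (adjusted p = 4.03e-06), with 0.74 on another probe. The smallest difference was that of H2-Oa, an inhibitor of peptide exchange, detected on 2 4T07 arrays and on no 67NR array, at least 1.11-fold higher (adjusted p = 0.00133). Since leukocytes also carry MHC class II, their markers stand beside this result: of 9 leukocyte markers tested, 0 were higher and 4 were lower in 4T07, among them the myeloid gene Lyz2 with 5.90, 5.94 and 6.97 in 4T07 and 8.98, 8.48 and 9.05 in 67NR. The T cell gene Cd3e ran the other way without a test, at 5.04, 6.74 and 6.42 in 4T07 and 4.69, 4.64 and 4.56 in 67NR.

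The promoter of H2-Eb1 (chr17:34305617-34305916, plus strand) is shown because class II promoters share the Y box, an inverted CCAAT motif. Capitals mark TGATTGG, the letters searched on both strands, which overlap no match to the motif above.
H2-Eb1: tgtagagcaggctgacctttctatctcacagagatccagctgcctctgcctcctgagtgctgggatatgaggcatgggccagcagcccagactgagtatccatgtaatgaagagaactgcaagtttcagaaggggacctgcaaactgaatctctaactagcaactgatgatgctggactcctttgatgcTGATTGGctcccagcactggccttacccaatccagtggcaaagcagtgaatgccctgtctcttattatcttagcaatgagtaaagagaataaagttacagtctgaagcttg
These letters were found in 3 of the 4 class II genes with a promoter in the table (H2-DMb1, H2-Eb1 and H2-Oa) and in 6 of 16 class I genes, against 9% of all genes with a promoter and 11.5% of the tested ones. The letters were in 6 of the 13 class I genes called higher and in 0 of the 3 not called. With only 3 genes not called, these counts cannot decide whether the letters set the called genes apart.

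Epithelial genes were split. The keratin pair of simple epithelia was far higher in 4T07: Krt8 had 11.90, 12.23 and 12.53 in 4T07 and 5.60, 6.17 and 5.83 in 67NR (6.35 ± 0.19, adjusted p = 2.08e-10), and its partner Krt18 was not above background in 67NR and at least 38.7-fold higher in 4T07. Of 7 keratins tested, 3 were higher and 0 were lower. Krt7 differed by only 0.60 ± 0.19 (adjusted p = 0.0258), a call lost with the deposited values and without replicate 1 or 2 of 67NR or replicate 3 of 4T07, and Krt14, a basal keratin, had 4.56, 5.22 and 7.67 in 4T07 and was not above background in 67NR (adjusted p = 0.126, or 0.0181 without replicate 1 of 4T07). Of 17 junction genes tested, 8 were higher and 2 were lower, with a median of 0.03. The plakin gene Ppl had 10.07, 10.37 and 10.14 in 4T07 on its brightest probe, which was not above background in 67NR (at least 33.1-fold higher), whereas its other probes gave differences of 0.48 and 2.10. Cdh1, the E-cadherin of adherens junctions, had 6.82, 7.20 and 6.90 in 4T07 and 5.32, 4.71 and 4.95 in 67NR (1.98 ± 0.17, adjusted p = 2.38e-06), and its mean in 4T1 was 9.96. The desmosomal gene Pkp2 differed by 2.41 ± 0.30, and the tight junction gene F11r was at least 3.63-fold higher. The tight junction genes Cldn3, Lsr, Ocln and Marveld3 were not above background in either line, and Cldn1 was not above background in 4T07 and at least 2.12-fold lower there.

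Of 13 epithelial transcription and splicing factors tested, 5 were higher and 1 was lower in 4T07. Foxa1, a pioneer factor of luminal cells, had 6.86, 7.86 and 7.01 in 4T07 and was not above background in 67NR, at least 4.29-fold higher. Gata3, which maintains luminal identity, had 10.28, 10.25 and 10.46 in 4T07 and 8.88, 8.86 and 9.06 in 67NR (1.40 ± 0.16), and Elf3 was at least 2.11-fold higher on its brightest probe. The basal factor Trp63 was at least 1.72-fold higher. Grhl2, a factor that maintains epithelial junctions, ran the other way: it was not above background in 4T07 and had 6.61, 5.95 and 6.03 in 67NR (adjusted p = 1.84e-05), and its mean in 4T1 was 8.48. Esrp1 and Esrp2, splicing regulators of epithelia, were not above background in either line.

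Transcription factors of the mesenchymal program were split. Of 14 tested, 6 were lower and 4 were higher in 4T07, with a median of -0.36. Twist1 had 5.32, 5.58 and 4.69 in 4T07 and 10.35, 10.18 and 9.61 in 67NR (-4.85 ± 0.24, adjusted p = 1.73e-08). Zeb1, a repressor of Cdh1, had 6.34, 7.07 and 7.18 in 4T07 and 11.01, 11.06 and 10.57 in 67NR (-4.02 ± 0.24, adjusted p = 9.56e-08). Snai2, Twist2, Prrx1 and Tbx3 were not above background on any 4T07 array, and were at least 9.76-fold, 13.7-fold, 14.9-fold and 7.70-fold lower there. The levels of these 6 factors did not overlap between the lines. Snai1, another repressor of Cdh1, was higher in 4T07, with 9.83, 10.08 and 9.72 against 8.81, 9.35 and 8.77 in 67NR (0.90 ± 0.21, adjusted p = 0.00437). Foxc1 rose by 1.504 ± 0.18, Foxf1 was at least 2.19-fold higher and Tcf4 rose by 0.54 ± 0.13, while Zeb2 differed by -0.30 (adjusted p = 0.147, or 0.0404 without replicate 3 of 67NR). The mean of Twist1 in 4T1 was 9.46 and that of Snai2 4.53.

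**Figure D3:**
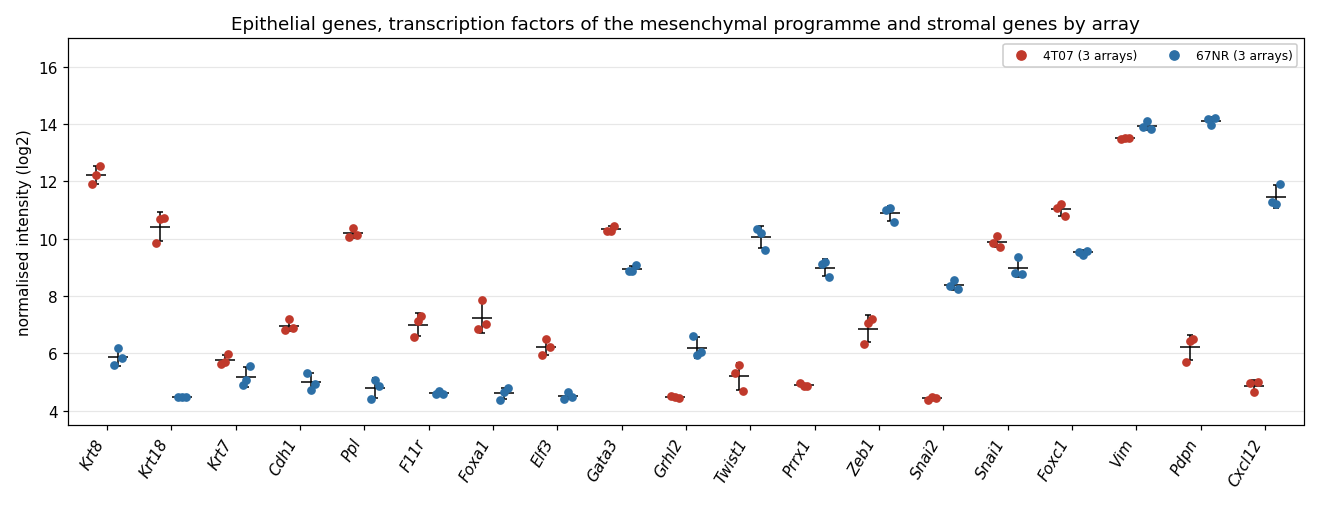
Normalized log2 intensity (vertical axis) of epithelial genes, factors of the mesenchymal program and 3 stromal or mesenchymal genes on each of the 3 4T07 arrays (red) and the 3 67NR arrays (blue), with the mean and SD of 3 arrays. Krt8, Krt18 and Ppl lie high in 4T07, while Krt7 is low in both lines. Twist1, Prrx1, Zeb1, Snai2, Pdpn and Cxcl12 lie high in 67NR, while Grhl2 lies higher in 67NR and Snai1 in 4T07.

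Of 14 mesenchymal genes tested, 10 were lower and 0 were higher in 4T07 (median -0.65). The myelin protein gene Pmp22 differed by -4.77, the calcium-binding gene S100a4 by -2.70 ± 0.23, and the caveolar gene Cav1 by -2.04, and the Wnt receptor gene Ror2 was not above background in 4T07 and at least 3.45-fold lower. The classical genes moved little: Vim, vimentin, had 13.48, 13.50 and 13.50 in 4T07 and 13.89, 14.09 and 13.83 in 67NR (-0.44 ± 0.12, a call lost without replicate 2 of 67NR at an adjusted p of 0.0541), and Fn1, fibronectin, differed by -0.64 ± 0.12. Both remained high in 4T07. Cdh2, N-cadherin, had 4.84, 5.93 and 5.08 in 4T07 and 5.62, 5.83 and 5.22 in 67NR, which overlap (adjusted p = 0.513). Of 14 S100 genes tested, 6 were lower and 0 were higher, S100a7a with -3.03 the most. Of 10 fibroblast and pericyte markers tested, 4 were lower and 1 was higher in 4T07, so that they did not all move with these lists. The part of these markers in the result was not tested. Their summed level, given above, rests mainly on Pdpn in 67NR and on Pdgfra, Dcn and Mylk in 4T07. Lum and Des were detected on no 4T07 array and on all 3 67NR arrays, Pdgfrb was not above background in 4T07 and had 6.62, 6.67 and 6.71 in 67NR, and Pdgfra overlapped between the lines at 10.96, 10.56 and 10.73 in 4T07 and 10.57, 11.13 and 10.70 in 67NR.

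Matrix genes changed in both directions. Of 27 collagen and matrix assembly genes tested, 10 were lower (37%) and 6 were higher (22.2%), beside 23.4% and 21.9% of all genes. Besides Fbln1 and Loxl1, a collagen and elastin crosslinker, the tenascin-C gene Tnc (-3.05) and the microfibril gene Mfap5 (at least 4.38-fold) were lower, while the prolyl hydroxylase gene P4ha2 (2.34), Col18a1 (1.86) and Col7a1 (1.76) were higher. Lox, the relative of Loxl1, had 6.24, 5.56 and 5.70 in 4T07 and was not above background in 67NR, at least 1.61-fold higher. Of 12 basement membrane genes, 5 were higher (3 without replicate 1 of 67NR) and 3 were lower: Lama5, a laminin chain of epithelia, had 11.13, 11.50 and 10.93 in 4T07 and 7.04, 6.98 and 6.35 in 67NR (4.39 ± 0.21), whereas Col4a1 differed by -1.47 and Col4a2 by -1.41. Itgb4, which pairs in the laminin receptor of hemidesmosomes, had 12.52, 12.60 and 12.23 in 4T07 and 9.19, 8.43 and 7.70 in 67NR (4.01 ± 0.29). Of 14 integrin subunits, 4 were higher (28.6%) and 5 were lower (35.7%). The lower ones included the collagen receptor chain Itga11 and the fibronectin receptor chain Itga5 (-1.5005 ± 0.31). Of 14 proteoglycan and hyaluronan genes, 2 were higher and 6 were lower, with the small leucine-rich proteoglycans apart: Bgn differed by -2.35 and Dcn by 1.12. Of 26 matrix proteases and inhibitors, 7 were higher and 7 were lower (26.9% each, near the shares of all genes). These were 4 and 4 without replicate 2 of 67NR, and 4 were higher without replicate 2 of 4T07. The collagenase gene Mmp13 had 8.63, 9.28 and 9.11 in 4T07 and 5.57, 4.92 and 4.99 in 67NR (3.85 ± 0.34, with 0.58 on another probe), and the gelatinase gene Mmp9 had 7.35, 8.49 and 8.34 in 4T07 and 10.55, 10.77 and 10.04 in 67NR (-2.39 ± 0.31).

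Wnt signaling genes were mostly higher in 4T07: 12 of 22 tested were higher and 2 were lower (median 0.66). Among ligands, Wnt7b had 11.84, 11.94 and 11.54 in 4T07 and 7.89, 7.32 and 6.85 in 67NR (4.42 ± 0.23, adjusted p = 2.01e-08), and Wnt6 was at least 6.001-fold higher on its brightest probe, which was not above background in 67NR (other probes -0.13 and 3.06). Secreted inhibitors rose as well, with Sfrp1 at 9.39, 9.10 and 9.20 in 4T07 and its probe not above background in 67NR (at least 16.9-fold higher), and with Notum, which removes the lipid of Wnt proteins, at 3.52 ± 0.30. The receptor gene Fzd7 differed by 2.63, and Fzd6 was not above background in 67NR and at least 6.92-fold higher. Axin2, a common transcriptional target of the pathway, was lower, at -0.78 ± 0.23 with overlapping values of 5.82, 5.21 and 4.85 in 4T07 and 5.76, 6.34 and 6.13 in 67NR, and its call was lost without replicate 2 of 67NR (adjusted p = 0.0699) and without replicate 2 (0.0518) or 3 (0.0626) of 4T07. Of 11 Notch genes, 5 were higher and 1 was lower. The target Nrarp was at least 4.33-fold higher and Hes6 at least 7.60-fold, both not above background in 67NR, whereas the target Hes1 had 9.45, 9.36 and 8.99 in 4T07 and 10.54, 10.58 and 10.19 in 67NR (-1.17 ± 0.18).

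Of 27 TGF-beta and BMP genes, 12 were higher and 4 were lower. The ligand gene Tgfb1 had 8.11, 8.42 and 8.70 in 4T07 and 6.33, 6.51 and 6.40 in 67NR (1.99 ± 0.17), the induced matrix gene Tgfbi differed by 2.94, and the coreceptor gene Tgfbr3 by -2.80. Of 35 receptor tyrosine kinases and ligands, 15 were higher and 7 were lower. The ephrin receptor gene Epha1 and the growth factor gene Fgf7 were detected only in 4T07, Igf2 differed by 2.01 ± 0.19, and Btc, a ligand of the EGF receptor family, had 5.20, 5.23 and 4.94 in 4T07 and 9.94, 9.43 and 8.97 in 67NR (-4.33 ± 0.21). Fgfr1 differed by -2.71 ± 0.20. Of 20 angiogenic factors, 9 were higher and 7 were lower, and the 2 best known growth factors among them moved apart. Vegfc, which acts on lymphatic vessels, had 9.79, 9.19 and 9.45 in 4T07 and was not above background in 67NR, at least 20.1-fold higher (adjusted p = 3.4e-10). Vegfa, which acts on blood vessels, had 9.73, 9.51 and 10.02 in 4T07 and 12.13, 12.29 and 11.75 in 67NR (-2.30 ± 0.28, adjusted p = 3.73e-05).

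Chemokines and cytokines were split, with 9 of 35 higher (25.7%) and 12 lower (34.3%), beside 21.9% and 23.4% of all genes (median -0.27). Ccl2, which attracts monocytes, had 8.43, 8.77 and 8.85 in 4T07 and 11.75, 11.55 and 10.75 in 67NR (-2.66 ± 0.52, adjusted p = 0.00148), and its neighbor in function Ccl7 differed by -2.46 ± 0.38. Il33, an alarmin, had 7.17, 6.53 and 6.97 in 4T07 and 10.12, 10.52 and 10.00 in 67NR (-3.32 ± 0.21). Values of the lines did not overlap for these genes. Higher in 4T07 were Csf3, the growth factor of granulocytes, with 7.89, 8.59 and 8.25 in 4T07 and its brightest probe not above background in 67NR (at least 8.56-fold, and a difference of 0.24 on another probe), and Cxcl16, at least 8.71-fold. Of the interferon-induced chemokines, Cxcl9 had 8.76, 8.46 and 8.84 in 4T07 and 7.18, 4.67 and 4.97 in 67NR (3.08 ± 0.50), while Cxcl10 differed by -0.94 ± 0.50 (adjusted p = 0.152, or 0.00868 without replicate 3 of 4T1, which shares the estimate of the spread).

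In central carbon metabolism, 9 of 17 glycolysis genes were higher and 1 was lower in 4T07 (median 0.33). The largest changes were in isoforms: Eno2, an enolase best known from neurons, had 10.46, 10.37 and 10.05 in 4T07 and was at least 35.4-fold higher, and the aldolase gene Aldoc rose at least 23.8-fold, both not above background in 67NR. The enzymes Ldha, Pgk1 and Gapdh differed by 1.06, 0.67 and 0.61, and Hk1, a hexokinase, by -0.73. Of 18 genes induced by hypoxia, 7 were higher and 2 were lower (4 without replicate 3 of 67NR): the carbonic anhydrase gene Car9 had 10.02, 10.04 and 10.16 in 4T07 and 5.90, 6.20 and 6.05 in 67NR (4.03 ± 0.17), and Pdk1, which limits pyruvate entry into mitochondria, differed by 2.93 ± 0.26. Vegfa and Adm, the vasodilator adrenomedullin, were the lower members, with Adm at least 7.76-fold lower. Of 20 TCA cycle genes, 2 were higher and 6 were lower, with the citrate synthase gene Cs at 9.45, 9.58 and 9.88 in 4T07 and 10.86, 11.24 and 11.24 in 67NR (-1.47 ± 0.17) and Me2 at -1.46 ± 0.21. The lower TCA genes numbered 3 without replicate 1 or 2 of 4T07. Of 45 oxidative phosphorylation genes, 1 was higher and 10 were lower, 22.2% beside 23.4% of all genes, and of 9 pentose phosphate genes 5 were higher and 2 were lower, with the transaldolase gene Taldo1 (-1.70) among the lower ones.

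Lipid metabolism and ferroptosis, which the study is concerned with, were described by a list of 19 genes, which is not independent evidence. The list holds genes the study discusses in these lines and others. Acsl3, Lpcat3, Aifm2 and Elovl2 are not named by the study, and Elovl5 only for gastric cancer. Of the 16 tested, 7 were higher and 3 were lower in 4T07. Acsl4, which couples polyunsaturated fatty acids to coenzyme A and favors ferroptosis, had 9.77, 9.48 and 8.89 in 4T07 and 7.61, 7.31 and 7.28 in 67NR (1.98 ± 0.22, adjusted p = 2.01e-05). Lpcat3, which places such fatty acids into phospholipids, had 9.91, 10.00 and 9.98 in 4T07 and 8.42, 8.12 and 8.48 in 67NR (1.62 ± 0.15). Acsl3, which activates monounsaturated fatty acids, differed by 1.75 ± 0.22, the elongase gene Elovl5 by 1.28 ± 0.14 and the desaturase gene Scd2 by 1.03 ± 0.21. The values of the lines did not overlap for these 5 genes. The array signal of Fads1 fell to the background in 4T07, as given above. Its mean was 4.78 in 4T07, 11.63 in 67NR and 11.62 in 4T1. Fads2, the delta-6 desaturase that precedes Fads1 in the same pathway, had 5.93, 5.86 and 5.86 in 4T07 and 6.47, 6.30 and 6.53 in 67NR. By western blot of cultured cells, the study reports more of both desaturases in the metastatic sublines than in the non-metastatic subline. The array signals of both genes in 4T07 ran the other way, and the cause of this contrast was not tested. The adjusted p of Fads2 was 0.0508, and of Scd1, which makes the first double bond, 0.0506 at a difference of 0.48 ± 0.18. With only the 6 arrays fitted, the adjusted p was 0.00991 for Fads2 and 0.0307 for Scd1. Fads3, a relative of Fads1, was not above background in 67NR and at least 2.27-fold higher. Neither Acly (0.17, adjusted p = 0.382) nor Fasn (-0.05, adjusted p = 0.82), both of fatty acid synthesis, passed the test. Fasn was detected on 1 4T07 array and on no 67NR array. For cultured cells, the study reports raised mRNA and protein of fatty acid synthase in the metastatic sublines. With Fasn near background, the arrays cannot decide whether it rose in these tumor cells.

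**Figure D4:**
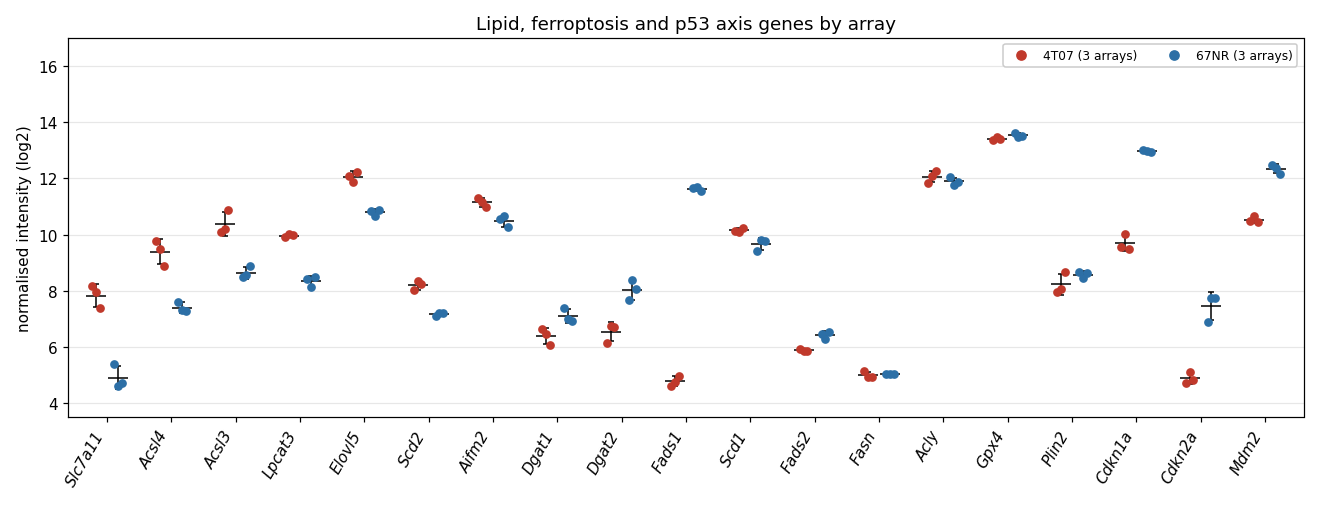
Normalized log2 intensity (vertical axis) of 16 lipid and ferroptosis genes and of 3 p53 axis genes on each of the 3 4T07 arrays (red) and the 3 67NR arrays (blue), with the mean and SD of 3 arrays. Slc7a11, Acsl4, Acsl3 and Lpcat3 lie higher in 4T07, Fads1, Cdkn1a, Cdkn2a and Mdm2 lie higher in 67NR, and Fasn, Acly and Plin2 overlap between the lines.

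Among ferroptosis control genes, 8 of 23 were higher and 3 were lower in 4T07 (median -0.06). Slc7a11, the cystine importer that feeds glutathione synthesis, had 8.17, 7.94 and 7.37 in 4T07 and 5.38, 4.62 and 4.72 in 67NR (2.92 ± 0.25, adjusted p = 1.82e-06), with 0.06 on a second probe. Gch1, which starts the synthesis of the antioxidant tetrahydrobiopterin, differed by 2.04 ± 0.22 with 0.08 on a second probe, and the protective oxidoreductase gene Aifm2, FSP1, by 0.67 ± 0.17. Gpx4, the peroxidase that reduces lipid peroxides, had 13.37, 13.46 and 13.41 in 4T07 and 13.60, 13.46 and 13.52 in 67NR (adjusted p = 0.481). Genes of iron handling moved in both directions, with Hfe at 1.63 ± 0.15 and Steap3 at -1.40 ± 0.18. Tfrc, the transferrin receptor, had 10.61, 10.54 and 9.95 in 4T07 and 8.996, 8.71 and 8.47 in 67NR (1.64 ± 0.20), and 7 of 16 iron handling genes were higher (4 without replicate 2 of 67NR) and 2 were lower. Lcn2, a siderophore-binding lipocalin, led them at 13.80, 12.996 and 12.76 in 4T07 and 9.54, 7.997 and 6.17 in 67NR (5.28 ± 0.63), with wide scatter in 67NR.

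Cholesterol genes were higher together. Of 15 tested, 10 were higher and 1 was lower in 4T07 (median 0.76), led by the demethylase gene Cyp51 with 9.16, 9.19 and 9.49 in 4T07 and 7.36, 7.59 and 7.89 in 67NR (1.67 ± 0.19). Fdps, Mvd and Sqle differed by 1.19, 0.87 and 0.81. The exception was Dhcr7, the last enzyme of the route, at 5.26, 5.71 and 6.55 in 4T07 and 7.66, 7.83 and 8.51 in 67NR (-2.16 ± 0.30). Among 21 lipid droplet and triglyceride genes, 1 was higher and 8 were lower (38.1%, beside 23.4% of all genes), with a median of -0.35. Both enzymes that complete triglycerides were lower, Dgat2 with 6.15, 6.75 and 6.72 in 4T07 and 7.68, 8.40 and 8.05 in 67NR (-1.503 ± 0.21) and Dgat1 with -0.72 ± 0.18, and so was the lipase gene Mgll (-2.39 ± 0.16). Plin2, which coats droplets, overlapped between the lines (-0.35 ± 0.19, adjusted p = 0.158). Without replicate 3 of 4T07 it was called lower (-0.57, adjusted p = 0.0117). For cultured cells, the study reports raised PLIN2 protein and mRNA in the more aggressive sublines, and the cause of this contrast was not tested. Of 20 mitochondrial fatty acid oxidation genes, 3 were higher and 6 were lower (3 without replicate 1 of 4T07), and the carnitine carrier gene Slc25a20 stood out with 9.87, 9.75 and 9.78 in 4T07, at least 25.2-fold higher. The citrate carrier gene Slc25a1 had 9.11, 9.05 and 9.14 in 4T07 and 4.96, 5.16 and 5.23 in 67NR (3.99 ± 0.13), the largest change of 16 fatty acid synthesis genes, of which 5 were higher and 2 were lower. Of 10 acyl-CoA synthetase and uptake genes, 6 were higher and 2 were lower.

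Detoxification genes came in 2 lists. Of 28 glutathione and NRF2 target genes tested, 16 were lower and 3 were higher, with a median of -0.56, or -0.47 with the genes below background set at their bounds. Gstm1, a glutathione transferase, had 7.65, 7.27 and 7.05 in 4T07 and 10.73, 11.08 and 11.21 in 67NR (-3.68 ± 0.18, adjusted p = 1.21e-08), and Gstt1 differed by -3.19 ± 0.16. Gstm1 has near-identical relatives, and its second probe gave -0.85. Nfe2l2, the gene of NRF2, was also lower (-0.81 ± 0.29, adjusted p = 0.0422), a call lost under median centring (adjusted p = 0.0716), without any single 4T07 array, and without replicate 1 or 2 of 67NR or replicate 1 of 4T1 (0.0554 to 0.166). Without replicate 2 of 67NR its difference was -0.45, and the higher members were the microsomal transferase genes Mgst2 and Mgst1 and Slc7a11. Of 17 retinoid, aldehyde and drug metabolism genes, 5 were higher and 8 were lower. Ephx1, an epoxide hydrolase, had 8.86, 8.32 and 7.09 in 4T07 and 12.23, 12.43 and 12.55 in 67NR (-4.31 ± 0.34). Nnmt, which methylates nicotinamide, and Cbr3, a carbonyl reductase, were not above background in 4T07 and at least 20.7-fold and 12.3-fold lower.

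The p53 axis was lower in 4T07: of 28 genes of this axis and of CDK inhibitors tested, 16 were lower and 4 were higher (median -0.58). Cdkn1a, the CDK inhibitor p21 and best known p53 target, had 9.56, 10.02 and 9.49 in 4T07 and 13.0005, 12.98 and 12.95 in 67NR (-3.28 ± 0.30, adjusted p = 3.14e-06), and its other probes gave -3.22 and -3.07. Ccng1 had 9.41, 9.37 and 9.20 in 4T07 and 11.48, 11.79 and 11.98 in 67NR (-2.42 ± 0.16). Mdm2, both a target and the ubiquitin ligase of p53, had 10.49, 10.65 and 10.46 in 4T07 and 12.48, 12.38 and 12.16 in 67NR (-1.81 ± 0.13). The lines lay apart for all 3 targets. Further targets differed the same way, with Trp53inp1 at -1.85 ± 0.20, Zmat3 at -1.57 ± 0.23, Phlda3 at -1.54 ± 0.18, and Aen at least 2.43-fold lower. Cdkn2a, the locus of p16 and ARF, was not above background in 4T07 and had 6.89, 7.74 and 7.75 in 67NR, at least 5.17-fold lower (adjusted p = 1.76e-06). The higher members were the cyclin genes Ccnd2 (1.68 ± 0.19) and Ccnd3, the death receptor gene Tnfrsf10b and the inhibitor Cdkn2c. Genes of the cell cycle itself moved less. Of 35 mitotic genes, 0 were higher and 9 were lower, 25.7% beside 23.4% of all genes, and 5, 4 and 5 were lower without replicate 1 of 67NR, replicate 3 of 67NR and replicate 2 of 4T07. Of 35 replication genes, 1 was higher and 13 were lower, with Cdt1 and Cdc6, which load the helicase, at -1.01 and -1.10 and Mcm7 at -0.88.

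Called genes were also described by their place in the genome. Of the tested genes, 10014 were placed on a chromosome through the RefSeq gene table. On chromosome 14, 47.1% of 327 genes were higher and 7.03% were lower in 4T07, with a median difference of 0.40. On chromosome X, 36.5% of 301 genes were higher and 13% were lower. On chromosome 10, 14.5% of 496 genes were higher and 38.7% were lower (median -0.29), and lower calls also made up 34.5% of the genes on chromosome 15, 31.1% on chromosome 11 and 30.7% on chromosome 7. These stand beside 21.9% higher and 23.4% lower over all genes.

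**Figure D5:**
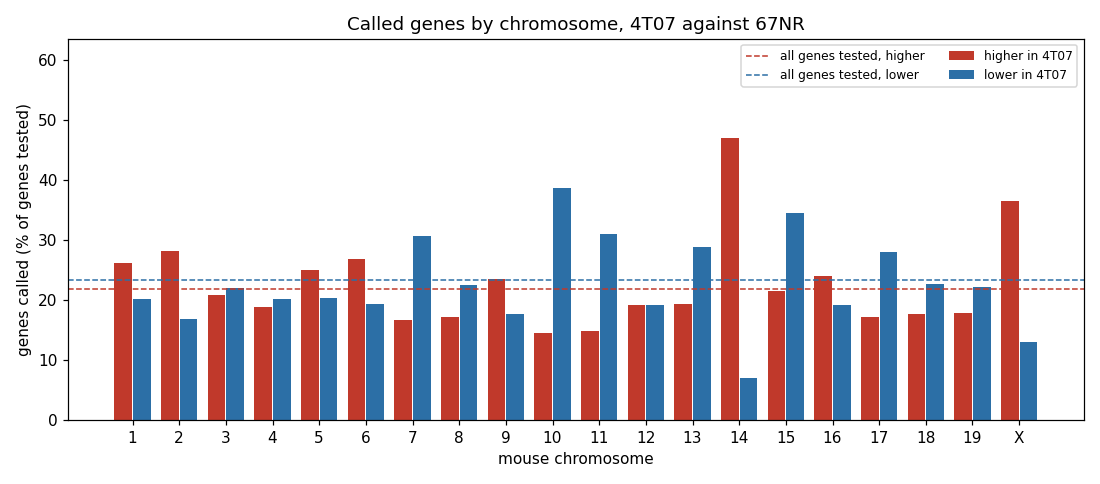
Percent of the tested genes of each mouse chromosome (horizontal axis) called higher (red) or lower (blue) in 4T07 than in 67NR at an adjusted p under 0.05. Dashed lines mark the 21.9% and 23.4% over all genes, and chromosome 14 stands out with 47.1% higher and 7.03% lower while chromosome 10 has 38.7% lower.

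Runs of 5 or more neighboring measured genes that were called in 1 direction numbered 59, of which 34 were higher and 25 were lower in 4T07. A run of 11 higher genes on chromosome 17 holds the MHC class II region, H2-Oa to H2-Eb1, with Psmb8, Psmb9, Tap1 and Tap2 inside it (median difference 4.11). Other runs of immune genes were 5 neighboring Gbp genes on chromosome 3, 5 Oas genes on chromosome 5 and 7 genes from Psme1 to Nedd8 on chromosome 14, which include Psme2 and Irf9. The longest run of lower genes, 11 genes from Pan2 to Zc3h10 on chromosome 10, holds Cs (median -0.94). Other runs of lower genes on that chromosome were 10 genes from Bbs10 to Zfc3h1 and 7 from Avil to Os9, which holds the cell cycle kinase gene Cdk4. A further run of 7, from R3hdm2 to Zbtb39, holds Shmt2, Lrp1 and Stat6. Single calls within runs were not all firm: that of Zfc3h1 was lost without replicate 2 of 67NR or replicate 3 of 4T07, that of Zbtb39 without replicate 1 of 4T07, and that of Mettl1, inside the run from Avil to Os9, without replicate 1 or 3 of 67NR or replicate 1 or 2 of 4T07. On chromosome 14, 9 genes from Cacna1d to Glt8d1 were higher with a median of 1.43, among them the transketolase gene Tkt and the kinase gene Prkcd. A run of 10 lower genes on chromosome 7 holds Dhcr7. Overlapping neighbors may share signal, and the measured genes are only part of those in each stretch.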

How the data were processed

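RNA of sorted tumor cells from primary tumors of 4T07, 67NR and 4T1, with 3 samples of each, was measured on 1-color Illumina bead arrays. The deposited table holds, per the file headers, a linear intensity and a detection p-value for 45281 probes on every array, and these intensities were neither background-corrected nor normalized. The authors also deposited log2 values for 22834 probes, which are quantile-normalized, with software and probe choice not given in the sources used here. No column of another sample was used.

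Intensities were background-corrected and quantile-normalized with neqc of limma 3.58.1 (R 4.3.3), with an offset of 16 and negative controls inferred from the detection p. The filter kept 15686 probes that passed a detection p of 0.05 on 3 or more of the 9 arrays. Of the deposited probes, 19281 have 1 gene symbol, 10 have several and 3543 have none in the platform annotation, and 19261 matched the RefSeq gene table of GRCm38.p6. The brightest probe stood for its gene, which gave 10021 genes. Of 1834 called genes with further kept probes, 208 had one of opposite sign. A linear model with empirical Bayes variances (lmFit, eBayes) was fitted to all 9 arrays, so that 4T1 shares the estimate of the spread, and p-values were adjusted by Benjamini-Hochberg over all genes. Depth does not apply to arrays, and their number limits the precision. The test was checked on simulated data.

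A gene whose probes, or whose brightest probe, were not above background on any array of 1 line has only a bound: the mean of the bright line against the mean, per array of the dim line, of the higher of its own signal and the lowest signal detected there. Named were the 15 largest rises and falls among genes detected in both lines, the 15 largest bounds in each direction, the members of each list with the largest changes or a role that needed them (72 genes taken by role or as markers, after their values were seen), the list of lipid and ferroptosis genes, and neighbors in runs of called genes; for brevity not all were printed. The arrays compared, the gene lists and the markers were chosen with earlier results of these data known. Alternatives covered the deposited values, background, scaling, filters, probe choice, the samples fitted, the replicate number as a block, the test, and leaving out each array.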

Additional observations from a re-analysis of the deposited data

How the results depend on the processing

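The numbers of genes higher and lower in 4T07 were 2200 and 2395 with the deposited log2 values, 2209 and 2396 without background correction, 2182 and 2417 with the mean of all probes of a gene, and 2073 and 2193 with only the 6 arrays fitted. Median centring gave 2253 and 1861, and moved the median of all genes to 0.013. The methods' t-test gave 1719 and 1675 after Benjamini-Hochberg. A test against a minimum change of 2-fold (limma treat) gave 672 higher and 430 lower genes, as it asks for more than a difference from 0. Without single arrays, 1916 to 2182 genes were higher and 1981 to 2338 were lower. Runs of neighboring called genes numbered 128 at a minimum of 4 genes and 28 at a minimum of 6, against 59 at 5. Replicate numbers in the labels did not pair the arrays: the deviations of same-numbered arrays from their line's mean correlated at 0.022, -0.054 and 0.104, and the fit with the replicate block gave 2140 higher and 2326 lower genes.

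Of 644 named genes, 621 were called, and 92 lost the call without some single array. Rtraf, a member of a run on chromosome 14, was the only one to change sign, at -0.23 with the mean of its probes, where single probes disagree. Counts of small changes were the least stable: lower mitotic genes numbered 5 under median centring and 12 with the deposited values, lower oxidative phosphorylation genes 7 and 13, and lower p53 axis genes 13 under median centring. Interferon-stimulated genes called higher numbered between 25 and 28 in every setting except the 2-fold minimum. Dim genes near background, such as Krt7 and Ifng, are limited by signal over background.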

Other observations

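Other gene groups moved by single members more than as a whole. Of 26 genes of the integrated stress response and serine synthesis, 6 were higher and 5 were lower in 4T07 (3 higher without replicate 1 of 4T07), beside 21.9% and 23.4% of all genes: Atf3 was detected only in 4T07, the factor Cebpb differed by 1.29 ± 0.18 and the pseudokinase gene Trib3 by 1.52 ± 0.47, a call lost without replicate 1 of 4T07, whereas Ddit3, the factor CHOP, differed by -1.35 ± 0.34 and the serine hydroxymethyltransferase gene Shmt2 by -1.19 ± 0.20. Of 12 polyamine genes, 5 were higher (3 without replicate 2 of 67NR) and 3 were lower. Odc1, which makes putrescine, had 12.22, 12.54 and 12.60 in 4T07 and 14.41, 14.22 and 13.99 in 67NR (-1.75 ± 0.21), while Smox, which oxidizes spermine, had 10.75, 11.43 and 11.11 in 4T07 and 9.14, 8.996 and 8.89 in 67NR (2.09 ± 0.19). Ass1, which makes argininosuccinate for arginine synthesis, differed by -2.54 ± 0.36.

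Of 16 BCL2 family genes, 6 were higher and 1 was lower in 4T07. The higher ones were the killer genes Bok (2.47 ± 0.21), Bmf (at least 2.92-fold) and Bcl2l11 (adjusted p between 0.0638 and 0.143 without any single 67NR array or without replicate 1 or 2 of 4T07), the survival genes Bcl2l2 (1.39 ± 0.12) and Bcl2 (0.72 ± 0.15), and the mitophagy gene Bnip3l, whose call was lost without replicate 3 of 67NR (adjusted p = 0.0681). The lower one was the p53 target Bbc3, PUMA (-0.63 ± 0.18), whose other probes gave -0.03 and 0.01 and whose call was lost without replicate 2 of 67NR (adjusted p = 0.0549) or replicate 3 of 4T07 (0.054). Of 12 imprinted genes, 4 were higher and 3 were lower: the growth inhibitor Phlda2 had 6.64, 7.83 and 7.79 in 4T07 and was at least 4.85-fold higher, while the transporter gene Slc22a18, from the same imprinted cluster, had 4.86, 5.31 and 5.50 in 4T07 and 8.67, 8.08 and 8.08 in 67NR (-3.05 ± 0.24). Of 23 peroxisome genes, 6 were higher and 1 was lower, with 3 higher without replicate 1 or 2 of 67NR or replicate 3 of 4T07, and of 34 ribosomal protein genes 1 was higher and 3 were lower, with a median difference of 0.00.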
